A study of Mus musculus with 8 samples.

Results

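RNA sequencing of mouse embryonic stem cells (ESCs) of the N33 line compared cells kept without feeders in the serum-free medium N2B27 with 2i (NB2i, 2 samples) with cells kept on feeders in serum medium with 2i (F2i, 2 samples). All genes with an estimated count were taken: 15287 of the 20278 genes in the files had at least 10 counts in at least 2 of the study's 8 samples and were tested. N33 is 1 line, derived from C57BL/6J mice (C57BL/6 in the labels). F2i cells grew on mouse embryonic fibroblasts (MEFs) whose division had been stopped by mitomycin C, in knockout DMEM with 20% fetal bovine serum. NB2i cells grew on plates coated with poly-L-ornithine and laminin, in N2B27 with the GSK3 inhibitor CHIR99021 at 3 µM and the MEK inhibitor PD0325901 at 1 µM. Leukemia inhibitory factor (LIF) at 1000 U/ml was in all media. The inhibitor concentrations of F2i are not given in the sources used here. Feeders, serum, plate coating and basal medium changed together between F2i and NB2i, so their parts in any difference cannot be told apart. The other 4 samples, used here only beside this comparison, had serum and LIF without 2i: F on feeders and G on gelatin without feeders (2 samples each). Cells from feeder cultures were separated from MEFs by their adherence to the dish before RNA extraction, so some feeder RNA could remain.

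Mouse ESCs are held in a naive, pluripotent state by LIF, which acts through STAT3, and by 2i, in which the MEK inhibitor blocks the ERK branch of FGF signaling and the GSK3 inhibitor stabilizes beta-catenin. Feeders add matrix and secreted factors, and serum brings BMPs, lipids and mitogens that activate the transcription factor SRF. N2B27 replaces these with defined supplements such as insulin, transferrin and selenite. A small share of ESCs in culture passes through a state resembling the 2-cell embryo, marked by Zscan4 genes, which are tied to telomere lengthening. Expression is given as FPKM (fragments per kilobase of transcript, scaled to the mapped fragments of the library), which is scaled to gene length, and differences as log2 fold changes of NB2i over F2i with their standard error (SE). A gene was called at an adjusted p under 0.05 and at least 2-fold in the quasi-likelihood test of edgeR, with p-values adjusted over all genes tested (Benjamini-Hochberg), and "rose" and "fell" are used only of called genes.

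The 8 samples held 20129641 to 20664488 counts, and replicates of F2i and NB2i correlated at 0.9969 and 0.9977 (Pearson r of log2(FPKM + 1) across genes). The study calls the replicates biological, and the labels only number them. P-values measure the spread between these samples, and whether that covers separate cultures is not given in the sources used here. Summed over the 16 naive markers, the F2i samples held 2826 to 2898 FPKM and the NB2i samples 2494 to 2533 FPKM, so both groups carried the labelled cell type's markers. In bulk RNA, fewer cells of a type and less RNA per cell cannot be told apart.

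In NB2i, 918 genes rose (6.01% of those tested) and 2038 fell (13.3%). These shares are to be set beside the counts of each list below. The genes that fell were mostly low in F2i and lower still in NB2i: their median level went from 1.08 to 0.17 FPKM, 1648 of them averaged under 1 FPKM in NB2i, and 170 had no counts there. The genes that rose had a median level of 0.988 FPKM in F2i and 3.02 FPKM in NB2i. Changes of more than 8-fold were made by 659 genes that fell and 62 that rose. At 10 FPKM or more in the higher group, the counts were equal, with 218 genes on each side. Both NB2i samples lay on one side of both F2i samples for 915 of the genes that rose and 2027 of those that fell. The calls make such separation likely, and 10263 of the 15287 genes had an unadjusted p under 0.05 in the edgeR test. The share of all tested genes with separate samples is not given here. Counts of separate members, here and in the lists below, are thus descriptions and no added support. By adjusted p alone, with no limit on the fold, 5094 genes were higher and 4704 lower, so the larger number of falls came with the 2-fold limit. The median log2 fold change over all genes tested was 0.02.

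**Figure D1:**
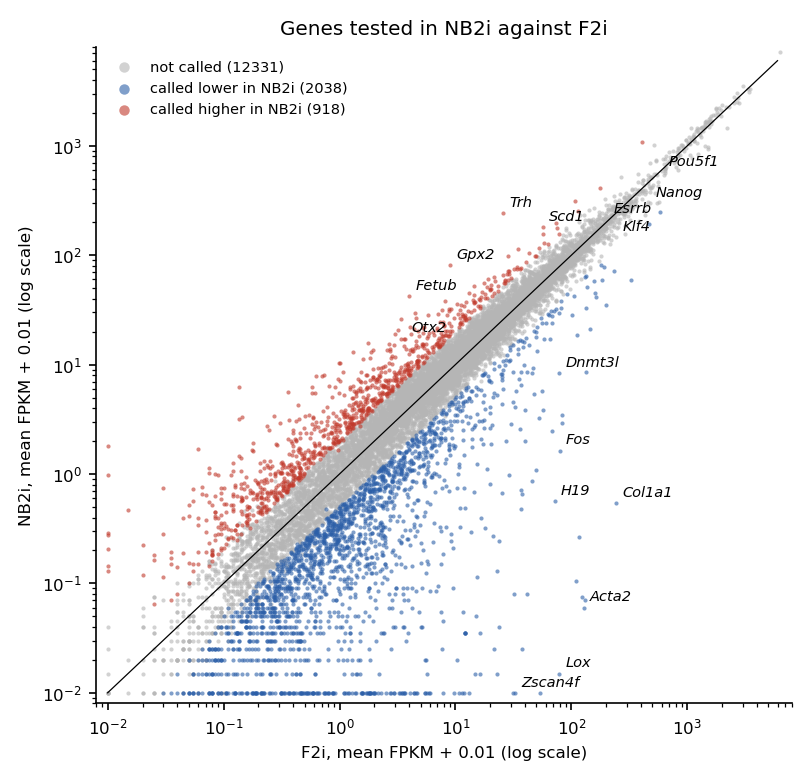
Mean FPKM plus 0.01 of each tested gene in F2i (x axis) and NB2i (y axis), both on log scales, with 2038 genes called lower in NB2i in blue, 918 called higher in red and the others in grey; the line marks equal levels. Blue points spread far below the line, down to the row of genes without counts in NB2i, while pluripotency genes such as Pou5f1, Esrrb and Klf4 sit near it.

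Genes made by fibroblasts fell. Of the 27 feeder fibroblast markers, 25 fell and none rose, with a median log2 fold change of -6.32 (-5.71 with the genes without counts in NB2i set at their bound). Col1a1, a chain of type I collagen, read 248 and 239 FPKM in the F2i samples and 0.55 and 0.51 FPKM in the NB2i samples, a 458-fold difference (log2 -8.84, SE 0.07, adjusted p 7e-27). Bgn, the proteoglycan biglycan, went from 134 and 131 FPKM to 0.08 and 0.04 FPKM (log2 -11.04, SE 0.12). Postn, the matrix protein periostin, had 55.0 and 52.7 FPKM in F2i and no counts in NB2i, at least 2337-fold lower. In all 3, the F2i samples were far above the NB2i samples with no overlap. Lox, which crosslinks collagen, had 14968 counts over both F2i samples and 1 over both NB2i samples, a ratio of 15160 with a counting interval of 2721 to 598900 (95%, exact). Col3a1, a fibrillar collagen, had 8488 counts against 3 (ratio 2866, interval 980 to 13900). Col12a1, a collagen that binds fibrils, had 10943 against 3 (ratio 3695, interval 1264 to 17920). Thbs2, a thrombospondin of the matrix, had 3594 against 1 (ratio 3641, interval 653 to 143800). For all 4, nearly every count lay in F2i. These intervals cover counting error only.

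Postn, Dcn, Lum, S100a4 and Fap were at 0 FPKM in both NB2i samples, and 23 of the 27 markers averaged under 1 FPKM. Summed over the list, FPKM was 1813 to 1830 in F2i and 858 to 880 in NB2i, and nearly all of the latter came from Fn1, Sparc and Vim. Fn1, the matrix protein fibronectin, had 318 and 305 FPKM in F2i and 358 and 334 FPKM in NB2i. Sparc, a matrix glycoprotein that early endoderm also makes, had 450 and 463 FPKM against 456 and 457 FPKM. Neither was called. Without these 3 genes, a choice made after their values were seen, the other 24 summed to 861 to 882 FPKM in F2i and 6.69 to 7.75 FPKM in NB2i, against 380 to 397 FPKM in F and 28.7 to 29.4 FPKM in G. F2i thus carried more of these transcripts than any other group. The part of feeder RNA in the other results was not tested.

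Cytokine and chemokine genes, which fibroblasts and serum-treated cells secrete, fell in 10 of 13 cases, with a median of -6.83 (-4.08 at the bound). Of the 10, 7 fell in G against F as well, where both groups had serum, and 3 were not called there. Csf1, the growth factor of macrophages, went from 6.74 and 6.82 FPKM to 0.06 and 0.09 FPKM, 114-fold lower (SE 0.17 on the log2 scale, adjusted p 6.86e-19). The adhesion molecule gene Vcam1 went from 1.99 and 1.65 FPKM to no counts, at least 85.1-fold lower. Ccl2, Ccl7, Cxcl1, Il6 and Tnfrsf11b had no counts in NB2i either, from means under 2 FPKM in F2i. Lif itself, the gene of the cytokine added to every medium, stood at 2.74 and 3.03 FPKM in F2i and 4.07 and 3.82 FPKM in NB2i and was not called.

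Most genes of the serum response list, targets of SRF and YAP, fell. SRF, with its actin-sensing partners, and the YAP coactivators drive early response and cytoskeletal genes when serum or a stiff surface acts on cells. Of 20 target genes, 18 fell, none rose, and the median log2 fold change was -3.83. Both F2i samples exceeded both NB2i samples for all 20. Of the 18, 11 fell in G against F as well, where both groups had serum, and 7 were not called there. Acta2, smooth muscle actin, had 126 and 129 FPKM in F2i and 0.06 and 0.04 FPKM in NB2i (log2 -11.33, SE 0.11, adjusted p 8.37e-26). Tagln, an actin binding protein, went from 117 and 116 FPKM to 0.32 and 0.19 FPKM, 464-fold lower. Cnn1, the muscle protein calponin, had 12.3 and 13.6 FPKM and then no counts, at least 352-fold lower. These 3 contractile genes were under 0.5 FPKM in both NB2i samples. Actg2, a further smooth muscle actin outside the list, had 32.0 and 30.8 FPKM and no counts in NB2i, at least 570-fold lower. Cav1, the caveolae protein, had 11.0 and 11.5 FPKM and no counts, at least 396-fold lower.

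YAP targets fell to unequal degrees. Ankrd1, a muscle ankyrin repeat protein, had 1.72 and 1.81 FPKM in F2i and no counts in NB2i, at least 42.6-fold lower. Ctgf, a secreted matrix-associated factor, read 131 and 134 FPKM in F2i and 8.18 and 8.78 FPKM in NB2i, 15.6-fold lower (log2 -3.96, SE 0.06). Its relative Cyr61 went from 82.1 and 83.0 FPKM to 2.82 and 3.05 FPKM (log2 -4.81, SE 0.07). Amotl2, an inhibitor of YAP that YAP itself induces, went from 68.4 and 67.5 FPKM to 27.8 and 28.1 FPKM, 2.42-fold lower. The immediate early gene Fosb went from 22.6 and 22.8 FPKM to 0.14 and 0.1 FPKM, 184-fold lower, and Srf itself from 25.1 and 26.2 FPKM to 8.9 and 8.97 FPKM, 2.86-fold lower. The 2 members not called were Ier2, an early response gene (log2 -0.54), and Actb, the cytoplasmic actin (log2 -0.65). Several of these genes are also made by fibroblasts: Acta2, Tagln and Fosb were lower in G than in F as well, while Cnn1, Tpm1 and Tpm2, which encode calponin and tropomyosins, were not called there (log2 -0.67, 0.09 and -0.02).

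The promoters of 15 of the 20 genes were in the RefSeq promoter table (build GRCm38.p6, the mm10 assembly), and 5 of them (33.3%) held a CArG box, the element that SRF binds, within 250 bases before and 50 after the start that the table lists. For some genes, Srf and Myl9 among them, that start lies inside a longer gene model. The share was 1.81% of all 27025 genes in the table and 1.54% of the tested ones. The list was searched on both strands for this element alone, which was chosen after the list's values were seen. The 5 genes were Egr2, Srf, Myl9, Vcl and Cnn2. All 15 members with a promoter in the table fell, so a fall does not set the 5 apart. The run of Cnn2, which ends at the start of its gene model, shows the element in capitals:
Cnn2 (chr10:79988480-79988599, plus strand): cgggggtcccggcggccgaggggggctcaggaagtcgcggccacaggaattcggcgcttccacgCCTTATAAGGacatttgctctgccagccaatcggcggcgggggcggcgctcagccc

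Srf carried a pair of boxes. The fall of Srf (log2 -1.51, SE 0.05) and that of Cnn2 (log2 -1.75, SE 0.05), a calponin found outside muscle, were small beside that of Myl9, a myosin light chain with 1794 counts in F2i and 3 in NB2i (ratio 606, interval 207 to 2940). A match of letters is a description and not a site in use.

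All 16 genes of the 2C list, most of them named in the study's text singly or by family, fell. In both NB2i samples, 8 of them had no counts, and the median log2 fold change was -8.67 (-6.33 at the bound). The study names Zscan4, Usp17l, Tcstv, Pramef25 and Tmem92 genes as representative in these same cells, so the list's direction is not independent evidence. Zscan4f (chr7:11397915-11402318) had 32.0 and 33.3 FPKM in F2i and no counts in NB2i, at least 815-fold lower (adjusted p 2.16e-20), and Zscan4c (chr7:11005745-11010547) had 11.1 and 10.2 FPKM and no counts, at least 332-fold lower. Tmem92, a membrane protein gene active at this stage, went from 6.02 and 5.86 FPKM to no counts, at least 176-fold lower. Pramef25, of the PRAME family, went from 3.34 and 4.02 FPKM to no counts, at least 105-fold lower. Usp26 and Usp17la, which encode deubiquitinases, fell least, by 3.27-fold and 4.44-fold, from 2.65 and 2.23 FPKM to 0.71 and 0.77 FPKM and from 2.62 and 2.74 FPKM to 0.5 and 0.69 FPKM. F2i and NB2i samples did not overlap for any of the 16.

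Reads of near-identical copies are shared out by the counting, so families were also summed. The promoters of Zscan4c and Zscan4f show how close the copies are: over 227 aligned bases they differ at 1 base, 99.6% identity. The stretch with that base in capitals reads (RefSeq, GRCm38.p6):
Zscan4c (chr7:11005602-11005721, plus strand): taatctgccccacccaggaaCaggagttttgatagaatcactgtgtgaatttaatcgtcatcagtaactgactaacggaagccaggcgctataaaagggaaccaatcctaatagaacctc
Zscan4f (chr7:11397795-11397914, plus strand): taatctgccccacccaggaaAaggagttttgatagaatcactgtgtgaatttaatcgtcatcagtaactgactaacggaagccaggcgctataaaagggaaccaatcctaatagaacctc

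Summed over its copies, the Zscan4 family had 2854 and 2851 counts in the F2i samples and 5 and 1 in the NB2i samples, a ratio of 963 with a counting interval of 442 to 2626 (log2 -9.85, SE 0.14, adjusted p 4.67e-23). The Usp17l family had 389 and 356 counts against 29.5 and 38.7, a ratio of 11.1 with an interval of 8.64 to 14.4 (log2 -3.45, SE 0.14, adjusted p 3.52e-15). The Tcstv family had 107 and 128 counts against 0 and 1, a ratio of 238 with an interval of 42.3 to 9442 (log2 -7.58, SE 0.44, adjusted p 2.26e-12). All 3 sums fell. In F, the Zscan4 sum was 1154 and 1208 counts, so F2i samples held more of it than serum samples on feeders without 2i.

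Of 10 further tested 2C-state genes, 8 fell, and 1, Chit1, rose. Dux, which encodes the factor that turns this program on, had 0.83 and 1.33 FPKM in F2i and no counts in NB2i, at least 30.1-fold lower (adjusted p 2.79e-08). Gm5662 had 861 counts in F2i and 3 in NB2i (ratio 291, interval 99.2 to 1413). Gm8300 and Gm2022 went from between 4.33 and 4.94 FPKM to no counts, at least 117-fold and at least 115-fold lower. Gm4340 rested on unequal F2i samples, with 5.95 and 1.17 FPKM, and no counts in NB2i. Chit1, which encodes a chitinase, went the other way, from 1.84 and 2.31 FPKM to 4.51 and 4.36 FPKM (log2 1.11, SE 0.18). Without replicate 1 of F2i, its call was lost.

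**Figure D2:**
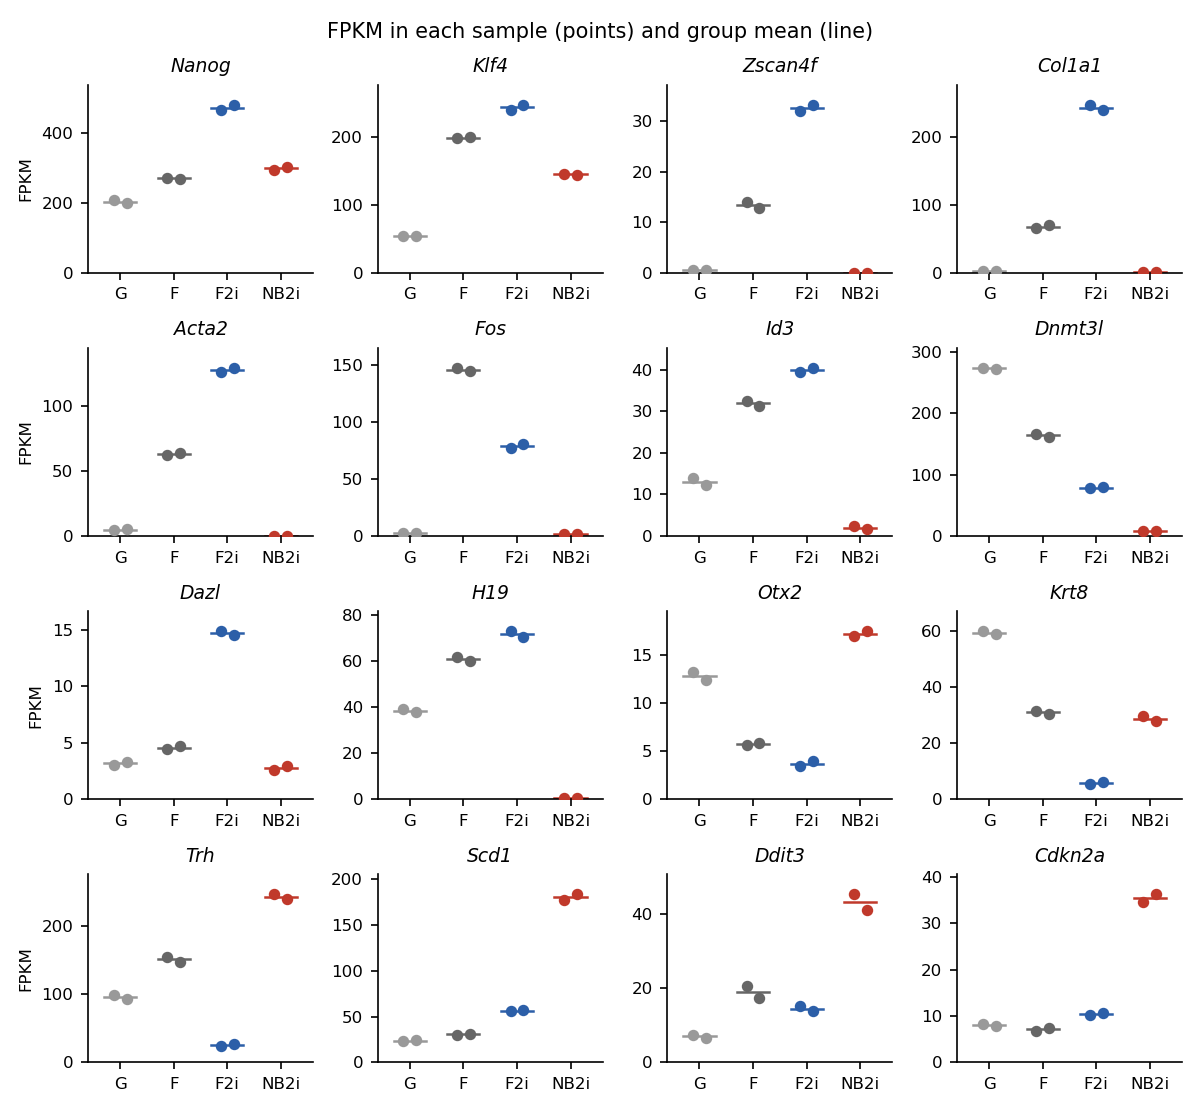
FPKM of 16 genes in each sample (points) of G, F, F2i and NB2i, with the group mean as a line; each panel has its own linear axis from 0. Zscan4f, Col1a1, Acta2 and H19 are near 0 in both NB2i samples and highest in F2i, Klf4 and Nanog keep most of their level, and Otx2, Scd1, Ddit3 and Cdkn2a are highest in NB2i.

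None of the 16 genes of the naive pluripotency network was called in either direction, the log2 fold changes ran from -0.89 to 0.43, and the median was -0.21. Pou5f1, which encodes OCT4, had 602 and 620 FPKM in F2i and 765 and 736 FPKM in NB2i (log2 0.30, SE 0.04, adjusted p 3.01e-06). Esrrb, an orphan receptor of the network, had 202 and 206 FPKM against 214 and 211 FPKM. Nanog, the homeobox factor of naive cells, had 465 and 482 FPKM in F2i and 295 and 304 FPKM in NB2i (log2 -0.66, SE 0.04, adjusted p 5.44e-12). Nanog levels were thus separate between the groups but less than 2-fold apart. Klf4 had 241 and 248 FPKM against 146 and 144 FPKM (log2 -0.74), Klf2 281 and 302 FPKM against 161 and 152 FPKM (log2 -0.89), and Tbx3 104 and 106 FPKM against 65.0 and 65.9 FPKM (log2 -0.68). Klf4, Klf2 and Tbx3 were called lower in G against F, with log2 values of -1.90, -2.26 and -1.97, and the difference between the comparisons was called for each of these 3. Sox2 and Zfp42, 2 further markers, had log2 fold changes of -0.15 and 0.19.

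Of 11 formative and primed epiblast genes, 5 fell and 1 rose, with a median of -0.80. Otx2, the factor that opens the formative state, had 3.41 and 3.98 FPKM in F2i and 17.0 and 17.5 FPKM in NB2i, 4.65-fold higher (SE 0.08 on the log2 scale, adjusted p 1.42e-15). Lef1, a partner of beta-catenin, moved oppositely, from 3.09 and 3.35 FPKM to 0.29 and 0.19 FPKM, 13.4-fold lower. Sox3 and Pou3f1, factors of the neural plate and primed epiblast, fell 9.39-fold and 2.55-fold, both from under 2.3 FPKM. Fgf5, the usual primed marker, stayed at or under 0.14 FPKM in all 4 samples.

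Of 14 tested lineage markers, 3 rose and 5 fell, and no lineage moved as a whole. Eomes, a T-box factor of trophoblast and endoderm, had 2.66 FPKM in both F2i samples and 5.67 and 5.68 FPKM in NB2i, 2.15-fold higher (adjusted p 1.89e-10). The mesoderm factor T had 0.46 and 0.43 FPKM against 1.04 and 1.0 FPKM. Gata3, a trophoblast factor, fell from 1.82 and 1.59 FPKM to 0.16 and 0.12 FPKM, and Gata6, the primitive endoderm factor, from 0.65 and 0.67 FPKM to 0.17 and 0.12 FPKM. Tead4, which acts with YAP, had 15.6 and 17.0 FPKM against 25.2 and 23.8 FPKM and was not called. Gbx2, a homeobox target of STAT3, had 4.81 and 5.01 FPKM against 2.64 and 2.43 FPKM (log2 -0.95), short of the 2-fold limit, but was called without replicate 1 of NB2i (log2 -1.01).

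Marker lists of other cell types did not share a direction. Of 13 primitive endoderm markers, 6 fell and none rose, and their sum was 509 to 518 FPKM in F2i and 483 to 484 FPKM in NB2i, most of it Sparc. Dab2, an endocytic adaptor, fell from 1.9 and 1.91 FPKM to 0.14 and 0.19 FPKM. Of 7 tested neural progenitor markers, Map2, a microtubule protein, rose from 1.26 and 1.14 FPKM to 2.7 and 2.84 FPKM, and Zic1 fell from a mean under 1 FPKM. The neural sum was 44.6 to 47.9 FPKM in F2i and 34.3 to 35.5 FPKM in NB2i, with the radial glia marker Fabp7 at 0 in NB2i. Trophoblast markers and simple keratins summed to 73.6 to 77.0 FPKM in F2i and 139 to 145 FPKM in NB2i, with 3 of 12 higher and 3 lower. The 3 were Eomes and a pair of keratins. Krt8 went from 5.52 and 6.16 FPKM to 29.7 and 27.7 FPKM, 4.93-fold higher (SE 0.07 on the log2 scale), and Krt7 from 3.09 and 2.93 FPKM to 20.0 and 18.4 FPKM, 6.40-fold higher. Krt18 and Krt19, keratins of the same epithelia, were not called (log2 0.45 and -0.31).

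Among DNA methylation genes, those that fell act in laying down the mark. Dnmt3l, the catalytically inactive cofactor of the de novo enzymes, had 77.6 and 79.6 FPKM in F2i and 8.01 and 8.55 FPKM in NB2i, 9.48-fold lower (log2 -3.24, SE 0.06, adjusted p 2.42e-21). Dnmt3a, a de novo enzyme, fell from 7.91 and 7.75 FPKM to 2.96 and 2.9 FPKM, 2.58-fold lower (adjusted p 9.75e-15). Dnmt3b, the other de novo enzyme, had 16.8 and 17.2 FPKM against 16.5 and 16.6 FPKM (log2 -0.04, adjusted p 0.55). The F2i and NB2i samples of Dnmt3b were thus less than 1 FPKM apart. The maintenance genes Dnmt1 and Uhrf1 had log2 fold changes of 0.33 and 0.43, and Tet1, Tet2 and Tet3, which oxidize the mark, of 0.18, -0.61 and -0.84. Of these 8 genes, 2 fell and none rose, with a median of -0.32. Dnmt3l stood at 164 FPKM in F and 273 FPKM in G on average, so it was lower in both 2i groups than in serum.

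Germline genes that DNA methylation keeps silent in somatic cells fell together. Of 17 tested, 14 fell, none rose, and the median log2 fold change was -1.78. Dazl, an RNA binding protein of germ cells, had 14.9 and 14.6 FPKM in F2i and 2.58 and 2.97 FPKM in NB2i, 5.26-fold lower (SE 0.08 on the log2 scale, adjusted p 1.97e-16). Sycp3, of the meiotic chromosome axis, went from 9.67 and 10.8 FPKM to 3.03 and 3.1 FPKM, 3.32-fold lower. Mael, of the piRNA pathway, went from 4.95 and 5.78 FPKM to 0.82 and 0.92 FPKM, 6.13-fold lower. Ddx4, the germ cell helicase VASA, went from 6.92 and 7.15 FPKM to 2.19 and 2.16 FPKM. Samples of the 2 groups did not overlap for any of these 4. Sycp1, of the synaptonemal complex, and Mov10l1, a piRNA helicase, fell 6.68-fold and 4.57-fold from under 2 FPKM. Stag3, a meiotic cohesin, was the only member with higher levels in NB2i (log2 0.47, not called). None of the 17 was called in G against F, with a median there of -0.17, and the difference between the comparisons was called for 12 of the 14.

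The E-box CACGTG, which reads the same on both strands and is a binding element of germline repressors such as the MGA and MAX pair, was found in 12 of the 17 members with a promoter in the table (70.6%). It was present in 8.09% of all genes and 11.4% of tested genes. Of the 14 genes that fell and had a promoter, 10 held it. Stk31 and Stag3, which were not called (log2 -0.89 and 0.47), held it as well, so the element does not set the genes that fell apart. The list was searched for this motif only, which was chosen after the list's values were seen. The runs of 3 members whose window ends at the start of the gene model show E-boxes in capitals (RefSeq, GRCm38.p6):
Sycp3 (chr10:88459467-88459586, plus strand): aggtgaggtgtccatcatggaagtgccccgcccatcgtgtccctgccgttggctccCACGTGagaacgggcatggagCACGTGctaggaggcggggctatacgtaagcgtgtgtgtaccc
Hormad1 (chr3:95559557-95559676, plus strand): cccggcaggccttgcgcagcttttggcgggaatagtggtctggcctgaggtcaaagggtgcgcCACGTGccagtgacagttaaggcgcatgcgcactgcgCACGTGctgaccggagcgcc
Sycp1 (chr3:102936101-102936220, minus strand): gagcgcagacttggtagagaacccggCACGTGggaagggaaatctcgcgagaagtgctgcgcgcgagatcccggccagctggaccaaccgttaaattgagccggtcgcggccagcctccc

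Sycp3 and Hormad1, both of the meiotic chromosome axis, carried E-boxes in a pair. Hormad1 fell from 25.01 and 22.1 FPKM to 9.48 and 9.72 FPKM (log2 -1.28, SE 0.08), and Taf7l, a germ cell variant of a TFIID subunit, from 0.9 and 0.94 FPKM to 0.2 and 0.1 FPKM (log2 -2.58, SE 0.36). Dazl and Tuba3a, a testis tubulin, held no such letters in this window.

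ERK feedback genes, which are switched on by FGF signaling and switched off by MEK inhibition, were lower in NB2i although both groups had 2i. Of 16, 11 fell, none rose, the median was -1.26, and the F2i samples were above the NB2i samples for all 16. Fos, the immediate early factor, had 77.2 and 81.0 FPKM in F2i and 1.72 and 1.53 FPKM in NB2i, 48.4-fold lower (log2 -5.60, SE 0.08, adjusted p 2.3e-23). Dusp6, the ERK phosphatase, went from 5.18 and 5.71 FPKM to 1.76 and 1.64 FPKM, 3.19-fold lower. Dusp4, a nuclear phosphatase of the same family, went from 2.78 and 2.99 FPKM to 0.52 and 0.44 FPKM, 5.97-fold lower. Etv4, an ETS factor, went from 5.4 and 5.84 FPKM to 1.63 and 1.55 FPKM, 3.52-fold lower. The levels in F were 35.4 FPKM for Dusp6 and 52.4 FPKM for Etv4 on average, so both 2i groups lay well below serum on feeders. Dusp5 and Phlda1, also induced by ERK, fell 6.35-fold and 5.55-fold. Etv5, Spred1, Spred2, Spry1 and Spry2 were not called, with log2 fold changes of -0.37 to -0.92. Fos, Egr1, Dusp5 and Fosl1 fell in G against F as well, and the other 7 that fell did not.

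Targets of beta-catenin did not share a direction: of 12, 3 rose and 3 fell, with a median of 0.28. Axin2, the feedback inhibitor read most often, had 12.4 and 13.2 FPKM in F2i and 16.2 and 16.04 FPKM in NB2i (log2 0.34, not called). Notum, a secreted enzyme that inactivates Wnt, rose from 7.92 and 8.46 FPKM to 19.6 and 17.7 FPKM, 2.29-fold. Rnf43, which removes Wnt receptors, rose from 0.1 and 0.12 FPKM to 0.57 and 0.37 FPKM. The third to rise was T, and the falls were of Lef1, Lgr5 and Nkd1, an inhibitor of the pathway. Lgr5, a stem cell receptor, had 59 counts in F2i and 2 in NB2i (ratio 29.9, interval 7.92 to 253).

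The LIF branch moved little. Of 12 genes, only Junb fell and none rose, with a median of 0.05. Socs3, the feedback inhibitor induced by STAT3, had 27.8 and 28.7 FPKM in F2i and 48.8 and 46.7 FPKM in NB2i (log2 0.76, not called). Stat3 and Lifr, the factor and the receptor, had log2 fold changes of 0.34 and 0.60. Junb, an early response gene that also belongs to the serum response list, fell from 16.9 and 17.3 FPKM to 4.59 and 4.46 FPKM, 3.77-fold.

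BMP pathway genes fell in 8 of 14 cases and rose in none, with a median of -2.00. Of the 8, 4 fell in G against F as well, among them Id3, Fstl1 and Grem1 (log2 -1.32, -1.05 and -6.80). The part of feeder RNA in these falls was not tested. The Id genes, inhibitors of differentiation that BMP and SMAD1 induce, separated by member. Id3 had 39.6 and 40.5 FPKM in F2i and 2.31 and 1.65 FPKM in NB2i, 20.1-fold lower (log2 -4.33, SE 0.12, adjusted p 3.97e-18). Id1 went from 5.55 and 6.93 FPKM to 0.79 and 1.07 FPKM, 6.65-fold lower, and Id2 from 25.6 and 25.9 FPKM to 5.81 and 6.11 FPKM, 4.30-fold lower. Id4 alone stood higher, at 9.74 and 8.29 FPKM against 14.3 and 14.8 FPKM (log2 0.70, not called). Of the ligand and its modulators, Bmp4 fell from 1.06 and 1.45 FPKM to 0.08 and 0.1 FPKM, 14.4-fold lower (adjusted p 1.04e-08). Fstl1, a secreted glycoprotein of the follistatin group, fell from 65.6 and 66.0 FPKM to 17.4 and 16.7 FPKM, 3.85-fold (SE 0.04 on the log2 scale). The BMP antagonist gene Grem1 went from 2.68 and 3.25 FPKM to no counts, at least 66.2-fold lower. Fst, follistatin, had 5.47 and 6.32 FPKM against 9.7 and 9.49 FPKM (log2 0.69) and was not called. The inhibitory Smad6 and Smad7 were not called either (log2 -0.26 and -0.04).

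Among 9 tested Nodal pathway genes, 2 fell and none rose, with a median of -0.34, and both were activin subunits. Inhba had 466 counts over the F2i samples and 1 over the NB2i samples, a ratio of 472 with an interval of 84.3 to 18690. Inhbb fell from 3.44 and 3.65 FPKM to 0.37 and 0.36 FPKM, 9.57-fold. In G against F, Inhba fell as well (log2 -5.73), and Inhbb was not called (log2 -0.07). Nodal itself had 48.2 and 50.7 FPKM against 38.5 and 39.2 FPKM. Lefty2, a Nodal antagonist, had 53.9 and 54.2 FPKM against 107 FPKM in both NB2i samples (log2 0.99), just short of the limit, and Lefty1 12.6 and 12.9 FPKM against 7.36 and 7.27 FPKM (log2 -0.79).

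Of 12 tested Notch pathway genes, 4 fell and none rose, with a median of -0.57. The ligand gene Dll1 fell from 1.99 and 1.74 FPKM to 0.15 and 0.14 FPKM, 12.5-fold, and Jag2, another ligand, from 5.77 and 6.14 FPKM to 2.71 and 2.62 FPKM. The targets Hey1 and Hey2 fell 3.09-fold and 2.44-fold. Of the 4, only Dll1 fell in G against F as well (log2 -2.83). Hes1, a target with more reads, had 42.2 and 42.4 FPKM against 51.3 and 55.9 FPKM and was not called.

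Medium supplements bring retinoids, steroid, iron and selenium, and the genes that answer to these were followed. The form of B27 used is not given in the sources used here. Of 15 tested retinoic acid pathway genes, 8 fell and none rose, with a median of -1.28. Of the 8, 5 fell in G against F as well. Rarg, a retinoic acid receptor, had 19.03 and 20.7 FPKM in F2i and 3.61 FPKM in both NB2i samples, 5.52-fold lower (SE 0.07 on the log2 scale, adjusted p 1.22e-17). Stra8, a retinoid-induced gene of premeiotic cells, fell from 4.85 and 4.12 FPKM to 0.22 and 0.3 FPKM, 16.4-fold. The retinoid binding genes Crabp2 and Crabp1 fell 11.3-fold and 2.42-fold, the former from 6.67 and 5.42 FPKM and the latter from 14.97 and 15.2 FPKM. Rara, a sister receptor, had 18.3 and 19.3 FPKM against 27.7 and 27.9 FPKM (log2 0.56, not called), and Cyp26a1, which degrades retinoic acid, stayed at or under 0.06 FPKM in all 4 samples.

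Of 10 glucocorticoid target genes, 1 rose and 3 fell, with a median of -0.46. Tsc22d3, or GILZ, rose from 2.21 and 2.13 FPKM to 7.59 and 6.67 FPKM, 3.24-fold (adjusted p 6.47e-11). Nr3c1, the receptor, fell from 3.03 and 2.59 FPKM to 0.93 and 0.76 FPKM, 3.31-fold. Dusp1 and Sgk1, which growth factors and serum also induce, fell 2.46-fold and 2.05-fold. Of the 3, only Dusp1 fell in G against F as well (log2 -1.39), where both groups had serum. Sgk1 and Nr3c1 were not called there (log2 -0.65 and 0.07). Fkbp5, a chaperone often used as a readout, had 53.3 and 53.7 FPKM against 64.4 and 64.9 FPKM (log2 0.28).

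Iron and metallothionein genes were nearly level, with a median of 0.00 and 1 of 12 lower. Tfrc, the transferrin receptor, had 77.4 and 74.3 FPKM against 63.3 and 67.6 FPKM (log2 -0.21), and the ferritin chains Fth1 and Ftl1 had log2 fold changes of 0.04 and -0.07. Steap3, an endosomal iron reductase, fell from 10.9 and 12.5 FPKM to 2.63 and 2.35 FPKM, 4.71-fold. Of 16 selenoprotein genes, 3 fell and none rose, with a median of -0.22. Dio3, which inactivates thyroid hormone, fell from 15.98 and 17.5 FPKM to 2.3 and 1.9 FPKM, 7.92-fold. It was the only one of the 3 that fell in G against F as well (log2 -2.25). Gpx3, the secreted glutathione peroxidase, fell from 15.4 and 16.5 FPKM to 2.95 and 3.07 FPKM, 5.27-fold, and Sepn1, an endoplasmic reticulum protein, fell 2.81-fold. Gpx1 and Gpx4, which follow selenium supply to unequal degrees, had log2 fold changes of 0.60 and -0.76.

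**Figure D3:**
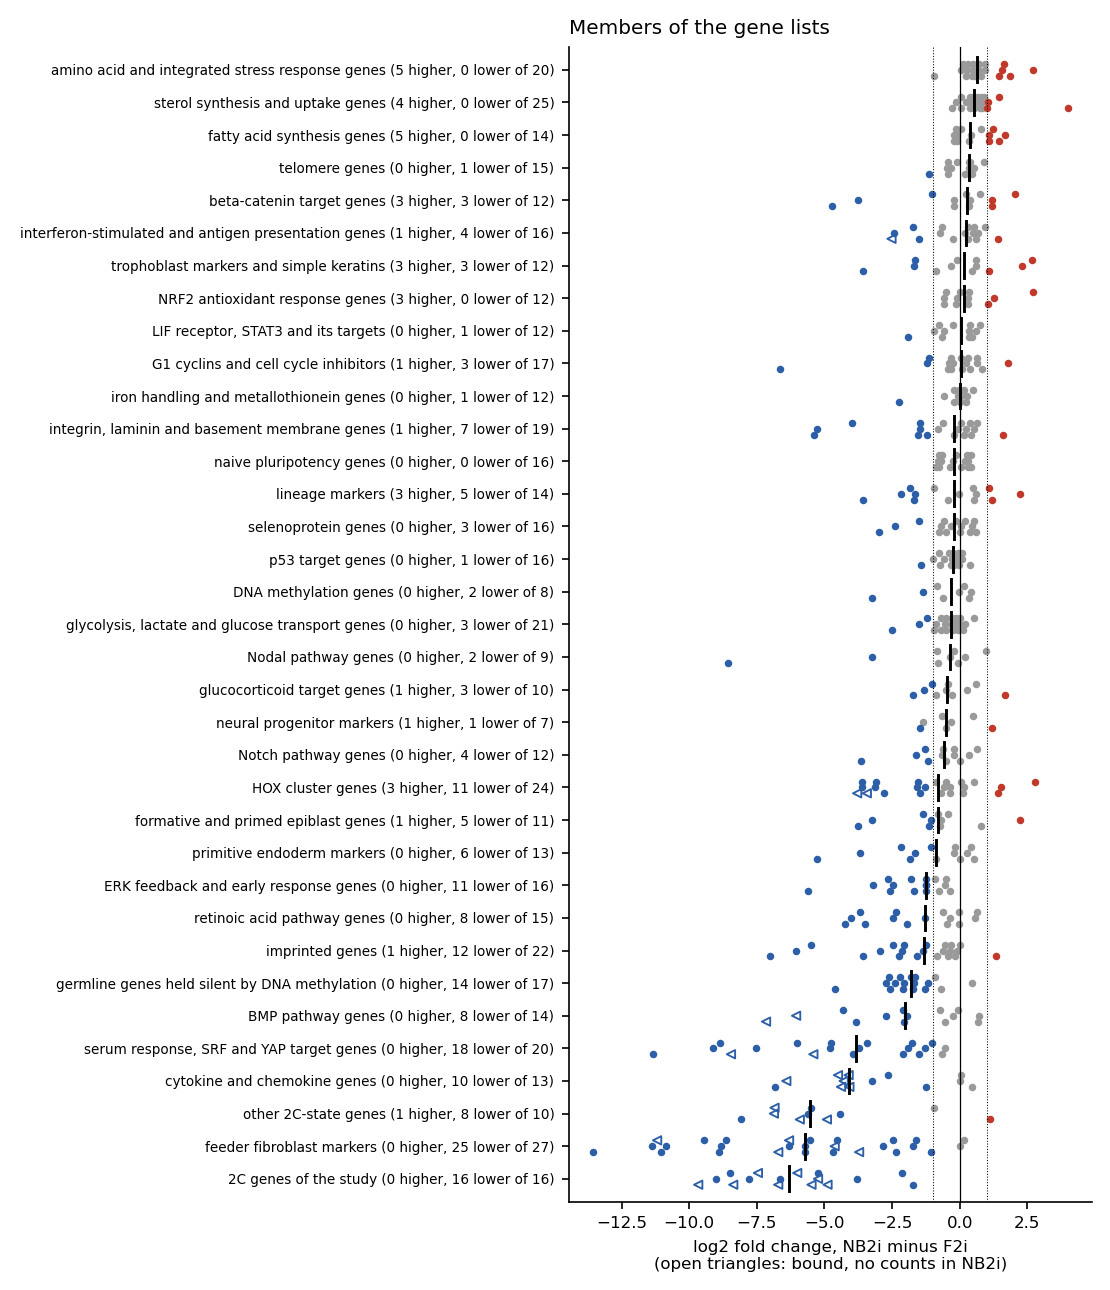
Log2 fold change of NB2i over F2i (x axis) for each tested member of the 35 gene lists (rows, with the numbers called higher and lower), coloured by call, with the list's median, bounds included, as a black bar and dotted lines at 2-fold; open triangles are bounds for genes without counts in NB2i. The 2C, fibroblast, cytokine and serum response lists reach far to the left, while stress response, sterol and fatty acid genes lie mostly right of 0.

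Genes of lipid synthesis rose in part. Of 25 genes of sterol synthesis and uptake, which SREBP2 controls according to the cell's cholesterol, 4 rose and none fell, the median was 0.54, and both NB2i samples exceeded both F2i samples for 21. Tm7sf2, a sterol reductase, rose from 8.83 and 8.82 FPKM to 25.4 and 22.6 FPKM, 2.73-fold. Dhcr7, the last enzyme of cholesterol synthesis, rose from 29.4 and 30.8 FPKM to 61.6 and 61.9 FPKM (log2 1.04, SE 0.05). Msmo1, a sterol demethylase, rose from 62.3 and 64.4 FPKM to 125 and 129 FPKM (log2 1.01, SE 0.05), and its call was lost without replicate 1 of F2i (log2 0.99) or replicate 2 of NB2i (log2 1.00). Hmgcs1, at the head of the pathway, was lower, with 110 and 108 FPKM against 88.5 and 90.6 FPKM (log2 -0.27, not called). The sterol regulatory element TCACNCCAC, searched on both strands, was found in 1 of the 17 promoters in the table (5.88%), that of Hmgcs1, and in 1.44% of all genes.

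Of 14 fatty acid synthesis genes, 5 rose and none fell, with a median of 0.38. Scd1, a desaturase that makes oleate, rose from 56.4 and 56.6 FPKM to 177 and 183 FPKM, 3.20-fold (SE 0.04 on the log2 scale, adjusted p 9.94e-19), and its sister Scd2 from 178 and 176 FPKM to 420 and 409 FPKM, 2.35-fold. Fads1, which desaturates longer chains, rose from 35.2 and 36.2 FPKM to 74.0 and 76.3 FPKM, 2.11-fold. Srebf1, the gene of the controlling factor SREBP1, rose from 18.2 and 19.5 FPKM to 42.0 and 38.6 FPKM, 2.15-fold. Acss2, which makes acetyl-CoA from acetate, rose 2.76-fold from 2.53 and 2.74 FPKM. Scd1, Scd2 and Fads1 are desaturases, and another desaturase gene, Fads2, was not called (log2 0.80). Of the enzymes that build and extend the chain, Fasn, Acaca and Elovl6 had log2 fold changes of -0.10, -0.14 and -0.22. No gene of either lipid list was called in G against F.

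**Figure D4:**
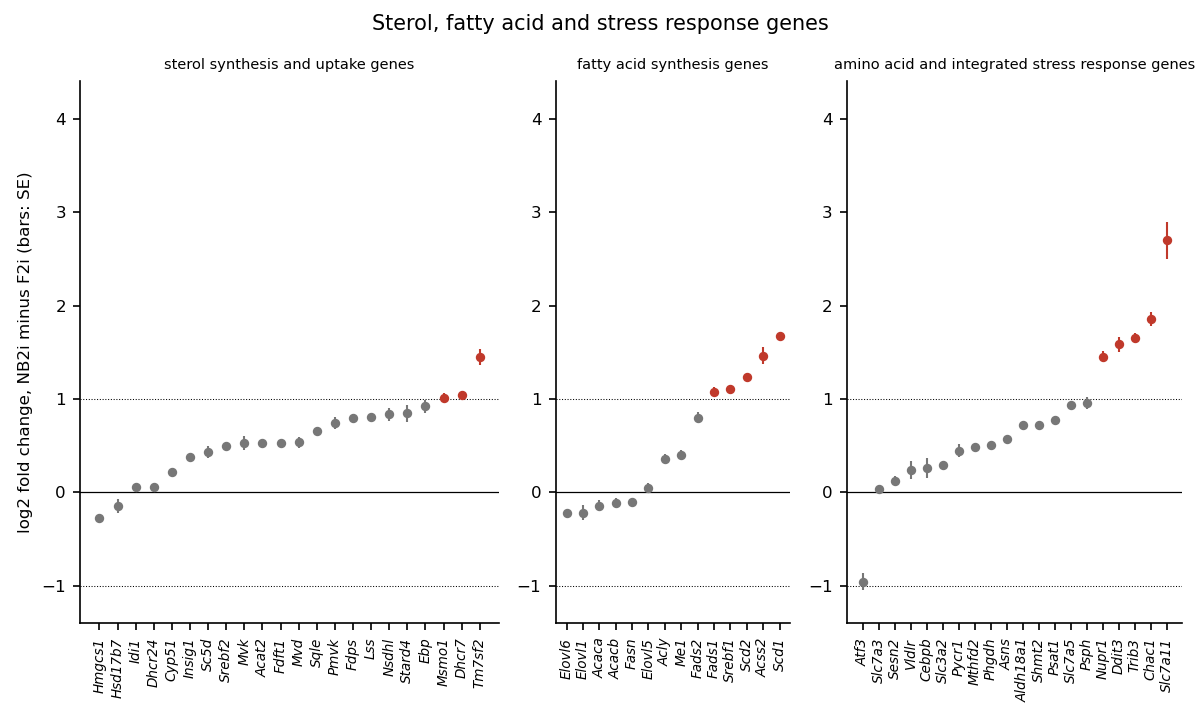
Log2 fold change of NB2i over F2i (y axis, with SE bars) for 22 of the 25 tested genes of sterol synthesis and uptake and for all tested genes of fatty acid synthesis and of the amino acid and integrated stress response, ordered within each panel; red marks called genes and dotted lines mark 2-fold. Most sterol and stress response genes lie above 0, and Tm7sf2, Scd1 and Slc7a11 stand highest in their panels.

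Genes of the amino acid and integrated stress response, which the factors ATF4 and CHOP induce when amino acids or protein folding fall short, stood higher in NB2i for 19 of 20 members. Of these, 5 rose and none fell, with a median of 0.64. Chac1, which degrades glutathione, rose from 8.49 and 9.26 FPKM to 33.7 and 30.5 FPKM, 3.63-fold (SE 0.08 on the log2 scale, adjusted p 4.98e-15). Trib3, a pseudokinase that damps the response, rose from 18.7 and 19.6 FPKM to 62.7 and 57.6 FPKM, 3.15-fold. Ddit3, the gene of CHOP, rose from 15.1 and 14.02 FPKM to 45.4 and 41.3 FPKM, 3.00-fold. No NB2i sample overlapped an F2i sample in these. Nupr1, a stress-induced chromatin protein, rose from 58.7 and 55.1 FPKM to 157 and 153 FPKM, 2.74-fold. Slc7a11, the cystine transporter, rose 6.5-fold but only to 0.93 and 0.92 FPKM. Asns and Psat1, of asparagine and serine synthesis, were not called (log2 0.57 and 0.78). Atf3 was the only member lower in NB2i (log2 -0.96, not called). In G against F, Ddit3, Chac1 and Slc7a11 were called lower, opposite to their rise here.

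The C/EBP-ATF element TGATGNAA, searched on both strands and chosen after the list's values were seen, was found in 8 of the 18 members in the promoter table (44.4%). The share was 4.51% of all genes and 2.87% of tested genes. All 5 genes that rose were in the table, and 4 of them held it, namely Chac1, Trib3, Slc7a11 and Nupr1. The runs of Chac1 and Nupr1, which end at the start of the gene model, show the element in capitals, read on the other strand (RefSeq, GRCm38.p6):
Chac1 (chr2:119351029-119351241, plus strand): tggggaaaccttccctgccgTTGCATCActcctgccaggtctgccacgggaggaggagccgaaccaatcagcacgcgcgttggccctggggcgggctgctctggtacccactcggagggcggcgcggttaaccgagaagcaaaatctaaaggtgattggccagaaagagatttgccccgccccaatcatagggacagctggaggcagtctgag
Nupr1 (chr7:126625471-126625590, minus strand): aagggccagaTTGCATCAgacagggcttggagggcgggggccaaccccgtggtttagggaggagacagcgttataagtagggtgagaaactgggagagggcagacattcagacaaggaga

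Slc7a11, with the largest fold of the list, held the element in a pair on opposite strands. The start listed for it lies inside a longer gene model.

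Of 12 genes of the NRF2 antioxidant response, 3 rose and none fell, with a median of 0.15. Nqo1, a quinone reductase, rose from 20.6 and 19.5 FPKM to 48.7 and 48.2 FPKM, 2.43-fold. Gstm1, a glutathione transferase, rose from 45.4 and 51.1 FPKM to 99.0 and 98.8 FPKM, 2.06-fold, and missed the limit without replicate 1 of F2i (log2 0.96). Slc7a11 was the last. Txnrd1 and Gclc, standard NRF2 targets, had log2 fold changes of -0.57 and -0.59, so the list did not move as one.

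Of 21 genes of glycolysis, lactate and glucose transport, 3 fell and none rose, with a median of -0.33. Over all genes tested, 13.3% fell and 6.01% rose, so the count of falls does not set this list apart. For 16 members, both NB2i samples lay below both F2i samples. Slc16a3, which exports lactate, fell from 32.7 and 33.4 FPKM to 5.81 and 5.74 FPKM, 5.66-fold (SE 0.06 on the log2 scale, adjusted p 3.32e-19). Pfkl, a phosphofructokinase, fell from 65.7 and 70.3 FPKM to 24.98 and 23.3 FPKM, 2.80-fold. Ldha, which makes lactate, fell from 574 and 588 FPKM to 248 and 249 FPKM, 2.33-fold. Pgk1 and Slc2a1, an enzyme and a glucose transporter, were close to the limit (log2 -0.87 and -0.96), while Gapdh and Hk2 had log2 fold changes of -0.03 and 0.01.

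Of 17 G1 cyclins, inhibitors and their regulators, 1 rose and 3 fell, with a median of 0.04. Ccnd2, cyclin D2, had 24.1 and 23.2 FPKM in F2i and 0.19 and 0.28 FPKM in NB2i, 99.0-fold lower (log2 -6.63, SE 0.10, adjusted p 4.19e-23). It averaged 14.3 FPKM in F and 1.28 FPKM in G, an order of groups that the fibroblast sum without Fn1, Sparc and Vim shares, and the part of feeder RNA in it was not tested. Ccne1, cyclin E1, fell from 56.1 and 56.6 FPKM to 22.9 and 25.2 FPKM, 2.33-fold. Cdkn2a, the locus of p16 and ARF, rose from 10.2 and 10.6 FPKM to 34.7 and 36.3 FPKM, 3.42-fold (SE 0.08 on the log2 scale, adjusted p 3.71e-14). Ccnd1 and Cdkn1b had log2 fold changes of 0.37 and 0.84 and were not called. Myc fell from 1.8 and 2.21 FPKM to 0.95 and 0.89 FPKM (log2 -1.12, SE 0.17) and missed the limit without replicate 2 of F2i (log2 -0.96), while its paralog Mycn had 43.5 and 44.5 FPKM against 44.9 and 45.4 FPKM.

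Of 16 p53 target genes, 1 fell and none rose, with a median of -0.25. Plk2, a stress-induced kinase, fell from 26.3 and 27.7 FPKM to 9.66 and 10.1 FPKM, 2.72-fold. Cdkn1a, the usual readout, had 129 FPKM in both F2i samples and 137 FPKM in both NB2i samples.

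Of 15 tested telomere genes, Myc, a regulator of Tert, was the only one that fell and none rose, with a median of 0.35. Tert, the reverse transcriptase of telomerase, had 5.42 and 5.31 FPKM against 6.77 and 7.31 FPKM (log2 0.40, adjusted p 0.00026). Rtel1, a helicase that unwinds telomere loops, had 14.96 and 15.6 FPKM against 29.2 and 28.0 FPKM (log2 0.91), the highest of the list and short of the limit. Terf1 and Terf2, which coat the repeats, had log2 fold changes of -0.44 and 0.35. Terc, whose RNA has no poly(A) tail, did not pass the count filter in these libraries, which were made from poly(A) RNA.

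Among 22 imprinted genes, which are expressed from 1 parental allele under marks laid by DNA methylation, 12 fell and 1 rose, with a median of -1.31. H19 (chr7:142575530-142578146), a maternally expressed long noncoding RNA, had 73.1 and 70.7 FPKM in F2i and 0.53 and 0.58 FPKM in NB2i, 129-fold lower (log2 -7.02, SE 0.09, adjusted p 2.99e-24). Its neighbour Igf2, a growth factor gene expressed from the paternal allele, had 49.3 and 49.8 FPKM against 1.07 and 1.09 FPKM, 44.96-fold lower (log2 -5.49, SE 0.07). Both genes of this domain thus fell. In G they kept 38.5 and 52.8 FPKM on average, against 60.8 and 41.5 FPKM in F, where neither was called. Meg3, of another domain, fell from 20.8 and 19.5 FPKM to 1.99 and 1.72 FPKM, 11.9-fold, and Rian, beside it, 5.52-fold, and both fell in G against F as well. Dlk1, the coding gene of that domain, had 214 counts in F2i and 3 in NB2i (ratio 72.3, interval 24.4 to 353). Phlda2, a growth inhibitor of the placenta, rose from 14.1 and 14.5 FPKM to 38.3 and 34.7 FPKM, 2.56-fold.

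Integrin, laminin and basement membrane genes are of interest because NB2i cells sat on laminin. Of 19 tested, 1 rose and 7 fell, with a median of -0.20. The type IV collagen chains fell most: Col4a1 from 26.1 and 24.6 FPKM to 0.64 and 0.67 FPKM, 38.3-fold (SE 0.08 on the log2 scale, adjusted p 8.2e-23), and Col4a2 from 16.7 and 16.8 FPKM to 0.45 and 0.33 FPKM, 42.2-fold. These chains were not called in G against F (log2 -0.58 and -0.68). Itgb1 and Itga5, which form the fibronectin receptor, fell 2.29-fold and 2.73-fold, from 75.1 and 72.0 FPKM and from 34.3 and 34.4 FPKM. Itga6, the laminin receptor chain, had 35.1 and 34.9 FPKM against 46.5 and 45.5 FPKM (log2 0.40). Lama1, a laminin chain of the early embryo, rose from 6.88 FPKM in both F2i samples to 21.1 and 20.4 FPKM, 3.03-fold, and Lama4, a mesenchymal chain, fell 15.7-fold.

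Of 16 tested interferon-stimulated and antigen presentation genes, 1 rose and 4 fell, with a median of 0.25. Ifitm1, a membrane protein abundant in ESCs, rose from 70.6 and 76.8 FPKM to 190 and 201 FPKM, 2.66-fold. Tap1, the peptide transporter, fell from 2.52 and 2.74 FPKM to 0.91 and 0.65 FPKM, 3.32-fold, and Isg15, Irf7 and Psmb8 fell from means under 1.3 FPKM.

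Of 24 tested HOX genes, which pattern the body axis and are active in fibroblasts by position, 11 fell and 3 rose, with a median of -0.79. Hoxb9 fell from 3.29 and 3.11 FPKM to 1.2 and 1.11 FPKM, and Hoxc8 from 1.66 FPKM in both F2i samples to 0.08 and 0.19 FPKM. All 11 fell in G against F as well. The rises were of Hoxc12, from 0.85 and 0.96 FPKM to 6.01 and 6.41 FPKM (6.86-fold), Hoxc4, from 1.83 and 1.59 FPKM to 5.13 and 4.65 FPKM (2.87-fold), and Hoxb13, below 1 FPKM throughout.

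The largest rises among genes of at least 10 FPKM in NB2i were of secreted, transport and enzyme genes. Fetub, a secreted cystatin-like protein of liver, rose from 4.08 and 3.9 FPKM to 44.3 and 40.4 FPKM, 10.6-fold (log2 3.40, SE 0.09, adjusted p 1.7e-18). Trh, the precursor of thyrotropin-releasing hormone, rose from 24.2 and 26.99 FPKM to 247 and 240 FPKM, 9.55-fold, and Gpx2, an epithelial glutathione peroxidase, from 9.25 and 8.81 FPKM to 80.3 and 81.5 FPKM, 8.99-fold. All NB2i samples were above all F2i samples, which the rule that chose these genes required. Fxyd2, a regulatory subunit of the sodium pump, rose from 1.69 and 1.81 FPKM to 16.1 and 15.5 FPKM. Adh1, an alcohol dehydrogenase that also acts on retinol, rose 10.4-fold to 10.6 and 10.2 FPKM. Lad1, a basement membrane filament protein, rose 10.2-fold to 13.6 and 12.6 FPKM. The homeobox genes Nkx6-2, Vax2 and Rhox9 rose 7.73-fold, 7.08-fold and 7.06-fold to levels between 11.1 and 27.2 FPKM. None of these 9 was called in G against F, where the 2-fold limit decided for some. Lad1, Rhox9, Fetub and Gpx2 stood higher in G (log2 0.93, 0.83, 0.50 and 0.45), each at an adjusted p under 0.05 by edgeR. Trh stood lower there (log2 -0.68, adjusted p 1.86e-10). Fxyd2 had at most 1 count in any G or F sample, so it could hardly be called.

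Removal of feeders in serum, G against F, shares no samples with NB2i against F2i and can be set beside it. There, 252 genes were higher (1.65% of those tested) and 855 lower (5.59%). Of the genes that fell in NB2i, 594 were also lower in G, or 29.1% of the 2038 and 69.5% of the 855. Of those that rose in NB2i, 60 were also higher in G, 6.54% of the 918 and 23.8% of the 252. Another 1402 falls were not called in G against F, among them Dnmt3l, Dazl, Id1, H19, Col4a1 and Tpm1. A further 81 genes were called in opposite directions.

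The difference between the comparisons was itself tested, as NB2i against F2i minus G against F. It was higher for 897 genes (5.87%) and lower for 1625 genes (10.6%). Of the genes that fell in NB2i, 1321 had a difference called in the same direction, and of those that rose, 558. For 238 genes that fell in both comparisons, the sizes of the falls differed by a called amount. Among the lists, 23 of the 25 fibroblast markers that fell and 15 of the 16 2C genes also fell in G, while no germline, sterol, fatty acid or glycolysis gene was called there. For Zscan4 the sum fell in G too (log2 -4.60, SE 0.10), by less than in NB2i (difference -5.26, adjusted p 8.9e-11). The Usp17l and Tcstv sums also differed in that direction (-1.06, adjusted p 0.000478, and -3.72, adjusted p 0.00584).

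**Figure D5:**
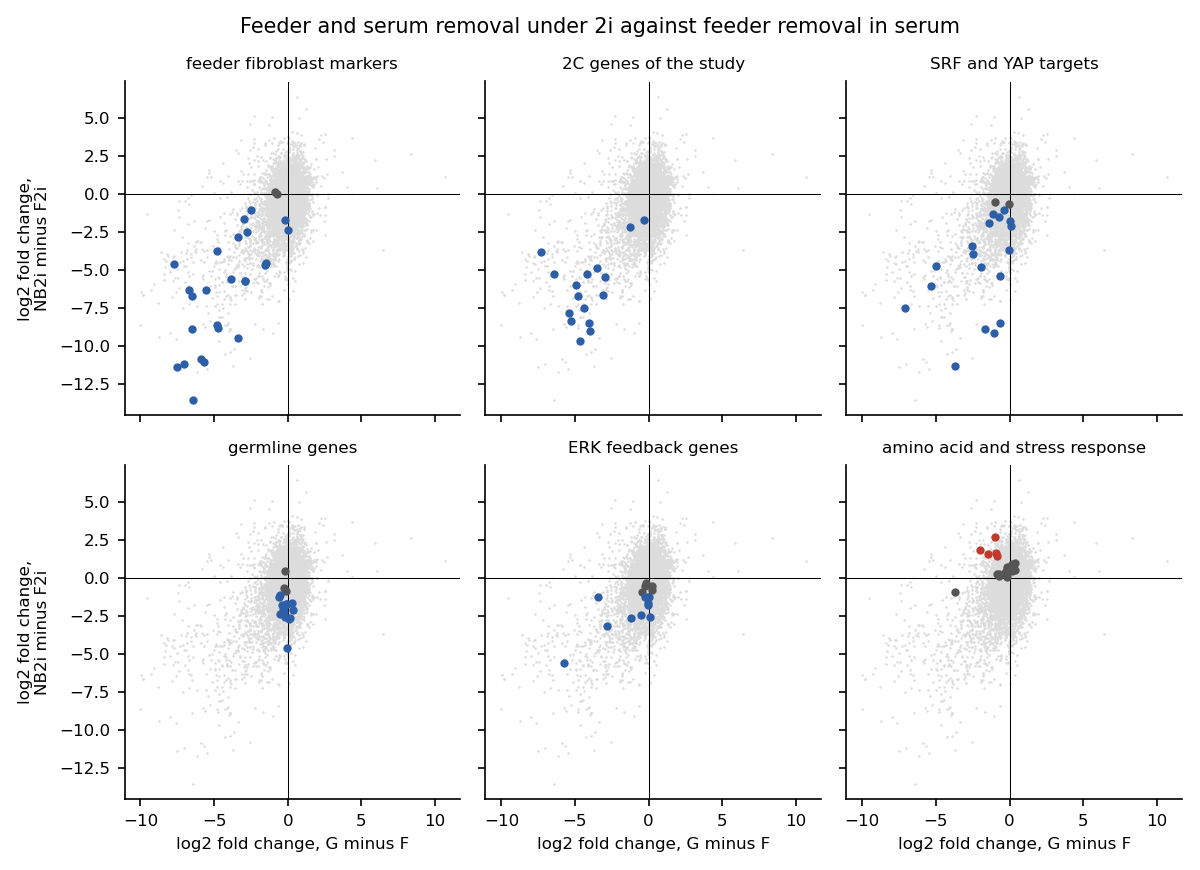
Log2 fold change of G over F (x axis) against that of NB2i over F2i (y axis, with genes without counts in NB2i at their bound) for all tested genes in grey and the members of 6 lists, blue where called lower in NB2i, red where higher and dark grey where not called. Fibroblast and 2C genes lie low in both comparisons, germline genes lie low only on the y axis, and stress response genes called higher lie left of 0 on the x axis.

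Of the 5 genes with the widest difference among those called in opposite directions, Inhbe, an inhibin subunit that the stress response induces, was the one that rose. It had 0.05 and 0.2 FPKM in F2i and 2.79 and 3.56 FPKM in NB2i (log2 4.62, SE 0.32), against a fall in G (log2 -2.59). Stmn4, Enpp2, Clvs2 and Ms4a4d had at most 0.72 FPKM in any F2i sample and no counts in NB2i, and rose in G by log2 values of 1.07 to 1.18.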

How the data were processed

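Poly(A) RNA of 8 samples (2 each of G, F, F2i and NB2i) was sequenced. The estimated counts and FPKM values were deposited by the authors, who per the methods of the study used RSEM; the submitters' processing notes name Bowtie2 and the mm10 build, and versions and the strand setting are not given in the sources used here. The deposited estimated counts were not normalized, while the FPKM values had been scaled by the authors to transcript length and library size. Replicates were not pooled.

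Estimated counts were rounded to whole numbers and a gene was kept if 2 or more of the 8 samples held 10 or more counts of it (15287 of 20278). All 4 groups were fitted together with TMM scaling in edgeR 4.0.16 (R 4.3.3), so that they shared 1 estimate of the spread, and NB2i against F2i, G against F and the difference of these were tested by quasi-likelihood with Benjamini-Hochberg adjustment. Genes were called at an adjusted p under 0.05 and at least 2-fold. The filter lets a gene pass through the group where it is high. Folds against a group without counts are bounds from a floor of 3 counts over the group. Ratios with 1 to 3 counts have 95% exact intervals for counting error. With 2 samples against 2, an exact permutation test cannot go below a p of 0.3333, so none is given. The script was tested on simulated counts.

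Genes named in full were the 10 highest rises and 10 largest falls at 10 FPKM or more with separate replicates, up to 4 called members of each list at 1 FPKM or more, 25 fixed genes, and up to 5 genes called in opposite directions in the 2 comparisons. Other genes were named after their values were seen. The comparison and the 35 lists were chosen with earlier results of these data known. Promoters and coordinates came from RefSeq (GRCm38.p6). Near-identical copies (Zscan4, Usp17l, Tcstv) are uncertain one by one and were also summed. Alternatives were DESeq2 1.42.0, limma 3.58.1 on log2(FPKM + 0.1) and log2(FPKM + 1), other scalings and filters, a test against the 2-fold limit (glmTreat), a replicate block and leaving out each replicate. A few genes of these lists are not reported here by name.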

Additional observations from a re-analysis of the deposited data

Results flagged for a closer look

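The difference between NB2i against F2i and G against F, 2 comparisons that share no samples, was called higher for 897 genes and lower for 1625 genes in the quasi-likelihood test of edgeR. It was called for 100 of the genes named by rule. The widest differences among genes called in opposite directions were those of Stmn4 (log2 -8.36), Enpp2 (log2 -7.49), Clvs2 (log2 -7.3), Inhbe (log2 7.2) and Ms4a4d (log2 -7.12). Stmn4, Enpp2, Clvs2 and Ms4a4d had no counts in NB2i, so the sizes of their fitted differences depend on the prior count of the fit and are no bounds. Groups of 2 samples are too small to look for a single sample far from the others.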

How the results depend on the processing

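With no limit on the fold, 5094 genes were higher and 4704 lower in NB2i (52.0% higher, against 31.1% with the limit), and 145 and 294 list members. Tested against the 2-fold limit by glmTreat, 503 were higher and 1349 lower (G against F 21 and 456, difference 422 and 865). With limma on log2(FPKM + 1), which shrinks low genes, there were 391 and 703 (G against F 29 and 280, difference 450 and 572), and without a filter 384 and 697 (27 and 268, 440 and 563). With limma on log2(FPKM + 0.1), 148 genes were higher in G, and with DESeq2 141. With at least 10 counts in every sample, which removes genes that fell to few counts, 1001 genes and 95 list members were lower in NB2i. Under that filter the members that fell numbered 11 for fibroblast markers, 10 for serum response and 2 for the list of 16 2C genes. They numbered 1 for cytokines, 4 for BMP and 9 for germline genes. With limma on log2(FPKM + 1), 7 germline and 7 ERK genes were lower. Leaving out 1 replicate gave 832 to 932 higher and 1871 to 1927 lower genes in NB2i, 190 to 255 and 762 to 847 in G, 828 to 900 and 1485 to 1586 for the difference, and log2 values of -11.33 to -9.14 for the Zscan4 sum, -3.65 to -3.27 for Usp17l and -9.92 to -6.73 for Tcstv. Of 2266 values of named genes over 17 settings, 2199 kept their side of the threshold, 54 lost the call, 13 gained it and 0 changed direction.

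Same-numbered replicates did not deviate together (correlations -0.065 to 0.045 over 13388 genes), so no pairing by number showed in the counts. A shared day with a small effect would not show this way, and whether equal numbers mark one is not given in the sources used here. With a replicate block, 917 genes were higher and 2026 lower in NB2i.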

Other observations

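Some epithelial genes, chosen after their values were seen, rose in NB2i. Cldn7, a tight junction protein, had 5.23 and 3.86 FPKM in F2i and 26.6 FPKM in both NB2i samples (log2 2.57, adjusted p 2e-15 by edgeR). Prss8, a membrane protease, had 3.19 and 3.18 FPKM against 21.8 and 19.7 FPKM (log2 2.71), and Ap1m2, an epithelial sorting adaptor, 4.29 and 4.01 FPKM against 18.4 and 19.9 FPKM (log2 2.21). Samples of the groups did not overlap. Cdh1, or E-cadherin, had 127 and 128 FPKM against 196 and 189 FPKM (log2 0.60) and Epcam a log2 fold change of 0.10, and neither was called.

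Some genes that low oxygen induces fell in NB2i and were not called in G against F. These too were chosen after their values were seen. Bnip3, a mitophagy receptor, had 39.6 and 40.03 FPKM against 4.09 and 3.51 FPKM (log2 -3.38, adjusted p 1.87e-19 by edgeR). P4ha2, a collagen prolyl hydroxylase, had 10.9 and 10.6 FPKM against 1.16 and 1.15 FPKM (log2 -3.21). Vegfa, a growth factor of blood vessels in the same response, had 24.0 and 24.2 FPKM against 31.2 and 33.03 FPKM (log2 0.42) and was not called. Oxygen was not measured, and the part of the medium was not tested.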
